A study of Rattus norvegicus with 47 samples.

Results

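The proteasome genes of whole blood were followed in male and female rats exposed to predator scent and in unexposed controls. The members were all array probes whose gene symbol starts with Psma, Psmb, Psmc, Psmd, Psme, Psmf or Psmg, leaving out the immunoproteasome subunits Psmb8 and Psmb9. The rule found 41 of the 13337 gene symbols on the array, measured by 42 of its 22523 probes. It gave 18 probes of the core, 9 of the base, 7 of the lid, 4 of assembly factors, 3 of activators and 1 of Psmc3ip, which is named as an interacting partner of a base ATPase and is no subunit itself.

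The animals were adult Sprague Dawley rats, and each array held the blood RNA of 1 rat. The groups were females with an extreme behavioural response to the scent (8 arrays), females with a minimal response (8), unexposed female controls (6 with usable signal), males with an extreme response (8), males with a minimal response (8) and unexposed male controls (8). The controls were tested for behaviour but not exposed, and the response classes were the submitters' own sorting of exposed animals by behaviour. The comparisons ask how exposure, and the behavioural class among exposed animals, went with blood RNA levels in each sex. Whole blood is a mixture, so a lower level in it can come from fewer cells of a type or from less RNA per cell, which cannot be told apart here.

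The 26S proteasome is the enzyme complex that degrades ubiquitin-tagged proteins. Its barrel-shaped core is built of outer alpha rings and inner beta rings, and Psmb5, Psmb6 and Psmb7 carry the catalytic sites of the inner rings. The cap on top of the barrel has a base, with a ring of ATPases (Psmc genes) that unfold substrates and with the scaffolds Psmd1 and Psmd2, and a lid that carries a deubiquitinase. In blood, maturing red cells clear proteins with it, and lymphocytes exchange catalytic subunits for inducible ones, of which Psmb10 is the form that takes the place of Psmb7. Subunit genes are known to be raised together by the transcription factor Nfe2l1 and, under oxidative stress, by Nfe2l2, both of which bind the antioxidant response element.

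The promoters of the 3 constitutive catalytic subunits and of the base scaffolds Psmd1 and Psmd2 are shown because the results below turn on Psmb6, Psmb7, Psmd1 and Psmd2, while Psmb5 did not pass any test. The sequences are the 180 bases that end just before the annotated gene start, from RefSeq on the GRCr8 assembly, written 5′ to 3′ on the gene's strand. Capitals mark the core of the antioxidant response element, searched as TGACNNNGC, and the CCAAT box, each on both strands. The stretch of Psmb5 is chr15:32047380-32047559 on the minus strand, that of Psmb6 is chr10:55737708-55737887 on the plus strand, that of Psmb7 is chr3:42827471-42827650 on the minus strand, that of Psmd1 is chr9:94157791-94157970 on the plus strand and that of Psmd2 is chr11:93763389-93763568 on the minus strand.
Psmb5: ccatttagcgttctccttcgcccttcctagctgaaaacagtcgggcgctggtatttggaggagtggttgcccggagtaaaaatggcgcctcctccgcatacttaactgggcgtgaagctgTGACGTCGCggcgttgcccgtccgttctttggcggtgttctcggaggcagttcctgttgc
Psmb6: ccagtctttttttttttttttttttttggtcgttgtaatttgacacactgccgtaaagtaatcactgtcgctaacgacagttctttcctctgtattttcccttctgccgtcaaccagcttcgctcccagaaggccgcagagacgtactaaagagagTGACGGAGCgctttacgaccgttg
Psmb7: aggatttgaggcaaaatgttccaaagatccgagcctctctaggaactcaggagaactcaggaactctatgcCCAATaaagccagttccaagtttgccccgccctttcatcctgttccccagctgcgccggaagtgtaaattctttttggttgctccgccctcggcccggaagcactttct
Psmd1: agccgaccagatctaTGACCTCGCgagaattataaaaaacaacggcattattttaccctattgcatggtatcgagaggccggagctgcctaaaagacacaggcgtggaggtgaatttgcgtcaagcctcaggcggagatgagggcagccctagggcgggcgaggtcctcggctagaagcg
Psmd2: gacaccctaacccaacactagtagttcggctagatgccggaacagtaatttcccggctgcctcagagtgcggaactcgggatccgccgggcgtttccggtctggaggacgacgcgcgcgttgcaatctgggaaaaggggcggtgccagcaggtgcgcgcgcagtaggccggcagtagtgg

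Psmb5, Psmb6 and Psmd1 held a match to the antioxidant response element core, with its first base at -60, -24 and -165 from the gene start. Psmb7 held a CCAAT box at -109 in place of it, and the stretch of Psmd2 held neither. Of the 41 genes, 37 were found in the promoter table, which gives 250 bases before and 50 bases after each start. The element core was in 8 of these 37 windows (21.6%), against 12.1% of all 33469 promoters and 12.5% of those of protein-coding genes. The 8 were Psma3, Psmb2, Psmb5, Psmb6, Psmd1, Psmd3, Psmd9 and Psme4, and Psmd1 held a further match at 23 bases after its start. The CCAAT box was in 16 of 37 (43.2%), against 37.5% of all promoters. These are matches of letters and not measured binding sites.

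Of the 42 probes, 33 were detected on all 46 arrays and 37 were tested, since they were detected on at least 7 arrays. The probes of Psma8, Psmc6 and Psmc3ip were detected on 0 arrays, and those of Psma3 and Psmb11 on 3 arrays each, so these 5 were not tested. Psma8 is a testis form and Psmb11 a thymus form of core subunits, while Psma3 and Psmc6 belong to the standard particle. Psmd8, Psmg2, Psma1 and Psmd5 were detected on 12, 22, 30 and 36 arrays and were tested near the background. Among the tested probes, Psma2 of the alpha ring varied most over the arrays (SD 0.555 on the log2 scale) and the catalytic subunit Psmb5 least (SD 0.186).

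Each of the 46 arrays detected between 5921 and 8770 probes, and the number of arrays limits the precision. Female control replicates 1, 3, 4 and 5 stood apart from the other 42 arrays in their blood markers. Their platelet score, the mean centred log2 level of the platelet markers, was -2.99 to -1.38, against -0.55 to 1.15 elsewhere. Their immediate early gene score was 1.06 to 1.48, against -0.71 to 0.25 elsewhere. Results that rest on female controls are therefore given with and without these 4 arrays. Of the marker genes, Treml1 (platelet), Ltf (neutrophil), Pax5 (B cell), Egr3 (immediate early) and Myh4 (skeletal muscle) were detected on no array.

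The largest group of differences was in males with a minimal response compared with unexposed males. There 8 of the 37 tested members passed the test (limma, adjusted p below 0.05 over 9416 probes), which is 21.6%, against 14.8% of all tested probes. Of these, 7 were lower (18.9%, against 6.71% of all probes) and 1 was higher (2.7%, against 8.11%). The lower ones were Psmb6, Psmb7 and 1 of the probes of Psmb10 in the core, and Psmd1, Psmd2, Psmc2 and Psmc4 in the base, and the higher one was the lid subunit Psmd6. The median difference of the 37 members was -0.14 on the log2 scale, against -0.01 for all probes. Below 0 were 26 of the 37 members, against 4884 of all 9416 probes. Members measured on the same arrays are not independent of each other.

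Psmb6, the subunit with caspase-like activity, had normalized log2 intensities of 9.46 at the lowest, 9.85 at the median and 9.98 at the highest in males with a minimal response, against 10.05, 10.46 and 10.61 in control males. The groups did not overlap, and the control nearest to the exposed animals was replicate 6. Here and below, the share of all tested probes whose groups did not overlap is not given. Non-overlap therefore describes the values only. The difference was -0.64 ± 0.11 (SE), or 0.641 times the control level, with an adjusted p of 0.000179.

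Psmb7, the trypsin-like subunit, had 7.23, 7.99 and 8.09 in males with a minimal response, against 7.88, 8.5 and 8.88 in control males (lowest, median and highest log2 intensity). All 8 exposed animals lay below the control mean, and the lowest control lay within their range. The difference was -0.63 ± 0.14 (SE, adjusted p = 0.00161). The third constitutive catalytic subunit, the chymotrypsin-like Psmb5, ran from 9.2 to 9.64 in males with a minimal response and from 9.53 to 10.1 in control males. Its difference of -0.24 ± 0.10 did not pass the test (adjusted p = 0.0899), although all 8 exposed animals were below the control mean.

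Psmb10 was measured by a pair of probes. Probe ILMN_2040046 had 8.31, 8.88 and 9.22 in males with a minimal response, against 9.17, 9.37 and 9.46 in control males, a difference of -0.52 ± 0.12 (adjusted p = 0.00354). Probe ILMN_1358888 had 10.99, 11.23 and 11.52 in males with a minimal response, against 11.35, 11.5 and 11.82 in control males. Its difference of -0.29 ± 0.12 did not pass (adjusted p = 0.106), so the 2 probes shared a sign but not a call. The remaining beta ring genes, Psmb1, Psmb2, Psmb3 and Psmb4, had differences between -0.28 and 0.09, none past the test. In the alpha ring, which gates entry to the barrel, 0 of 6 tested members passed. An unadjusted p below 0.05 was found for 0 of these 6, against 2612 of all 9416 probes. Their median difference was 0.02, against -0.28 for the 9 beta ring probes.

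In the base, Psmd1 had 6.59, 6.83 and 6.97 in males with a minimal response, against 7.17, 7.32 and 7.5 in control males. The groups did not overlap, and the difference was -0.52 ± 0.12 (adjusted p = 0.00249). Psmd2, the other scaffold, had 7.65, 7.93 and 8.07 in males with a minimal response, against 8.11, 8.28 and 8.48 in control males. These groups did not overlap either, with a difference of -0.41 ± 0.12 (adjusted p = 0.0178). Across all tested base probes the median difference was -0.41, with 7 of 8 below 0 and 4 passing. Of all 9416 probes, 4884 were below 0 and 1396 passed.

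Among the ATPases, Psmc2 ran from 7.34 to 8.02 in males with a minimal response, against 7.83 to 8.28 in control males, and differed by -0.41 ± 0.12 (adjusted p = 0.0175). Psmc4 ran from 9.32 to 9.69 in males with a minimal response, against 9.39 to 10.12 in control males, and differed by -0.32 ± 0.09 (adjusted p = 0.015). Psmc5 and the ubiquitin receptor Psmd4 had differences of the size of that of Psmd2, at -0.41 ± 0.15 and -0.41 ± 0.16, but did not pass (adjusted p = 0.0553 and 0.088). Psmc1 and Psmc3 did not pass, with differences of 0.06 and -0.15.

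In the lid, the outer part of the cap, 1 of 7 members passed the test. Psmd6 had 7.17, 7.79 and 8.17 in males with a minimal response, against 7.21, 7.35 and 7.65 in control males, a difference of 0.35 ± 0.12 (adjusted p = 0.0429). The groups overlapped, and 7 of 8 exposed animals were above the control mean. This call was lost on leaving out any of 10 of the 16 arrays, which were control replicates 1, 2, 3, 5 and 7 and minimal response replicates 1, 2, 3, 5 and 6, with an adjusted p of up to 0.117. The other lid members ran from -0.16 for Psmd8 to 0.23 for Psmd3. Of the assembly factors, 0 of 4 passed, from -0.17 for Psmd9 to 0.37 for Psmd5. Of the activators, the PA28 subunits Psme1 and Psme2 and the PA200 gene Psme4, 0 of 3 passed, and Psme1 had the smallest adjusted p (-0.25 ± 0.09, adjusted p = 0.0596).

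The 7 lower calls were each kept when any single array of these groups was left out. Scaled to each array's 75th percentile in place of quantile normalization, the 7 kept their sign. Only Psmb6 and Psmb7 then passed (2 members, against 5.78% of all probes). With the empty array kept in the fit 0 members passed, against 3.37% of all probes. Of the blood markers in this comparison, 0 of 7 platelet, 0 of 4 monocyte, 0 of 8 cytotoxic, 1 of 10 erythroid (lower), 1 of 6 B cell (lower), 1 of 7 T cell (higher) and 3 of 10 neutrophil markers (2 higher, 1 lower) passed, as did 1 of 8 immediate early genes (higher). The summed erythroid level was 67919 to 85850 in males with a minimal response, against 67027 to 97318 in control males, on the linear intensity scale, and the summed neutrophil level was 3141 to 6969 in males with a minimal response, against 3809 to 6595 in control males. With the scores of 6 blood cell types as covariates, Psmb6 differed by -0.64 (adjusted p = 0.000251), Psmb7 by -0.58 and Psmd1 by -0.49, all still called. Psmc4 (adjusted p = 0.0644), Psmc2 (0.0608) and Psmd2 (0.0523) were not called in that fit, in which 14.2% of all probes passed. The value of the Psmb10 probe in that fit is not given here. Skeletal muscle genes, which are foreign to blood, had 1 of 5 lower, with a summed level of 144 to 789 in males with a minimal response, against 201 to 16792 in control males. The part of these muscle transcripts in the proteasome differences was not tested.

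**Figure D1:**
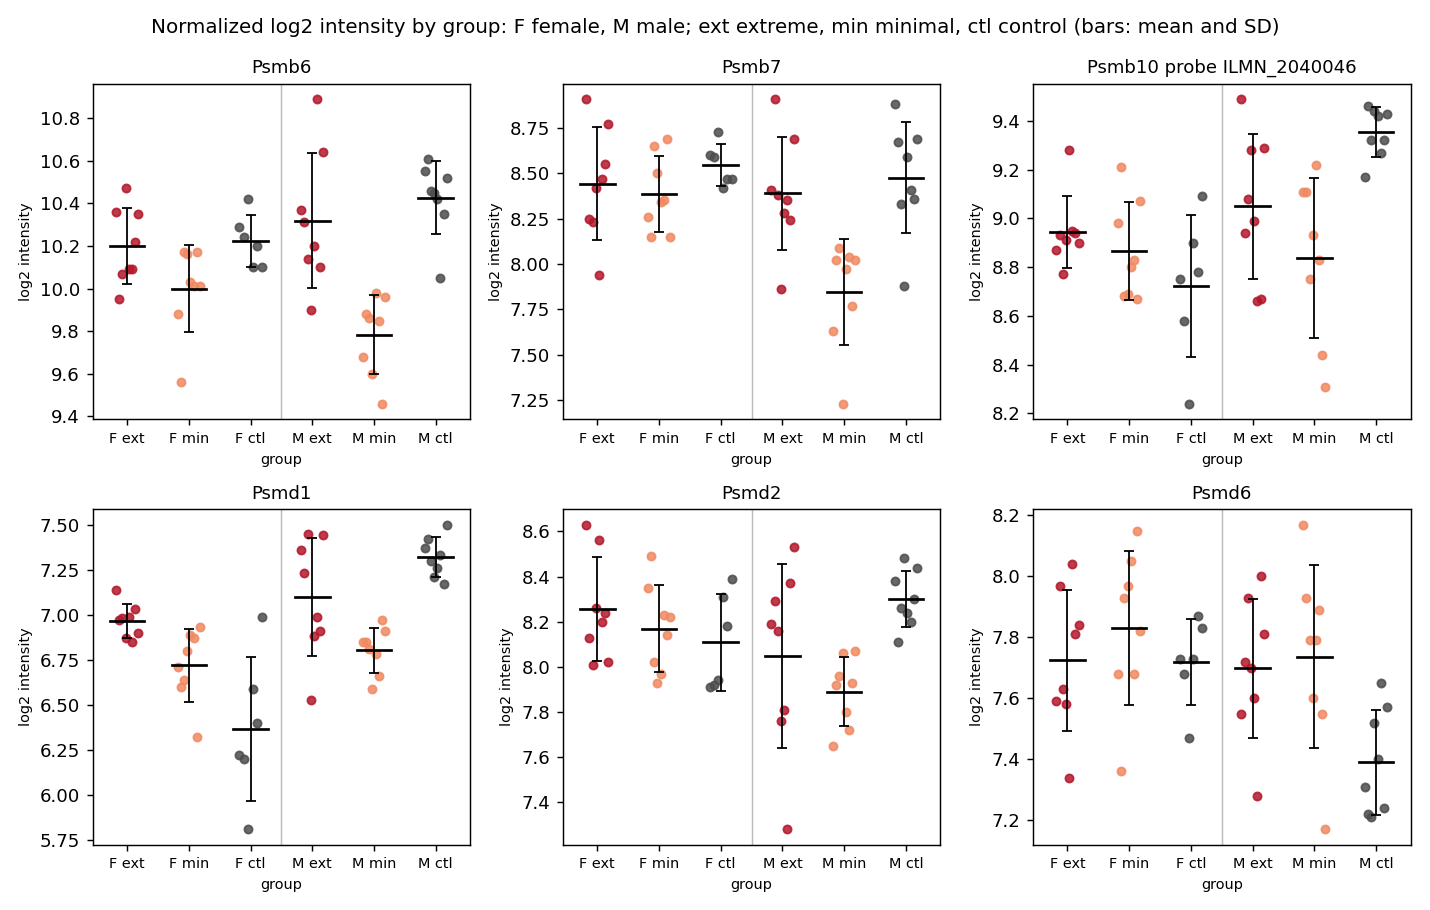
Normalized log2 intensity (vertical axis) of 6 proteasome probes on each array, by group (horizontal axis), for females on the left and males on the right of each panel. Points are rats, and bars are the group mean and SD. In males the 8 minimal response arrays lie below all 8 control arrays for Psmb6, Psmd1 and Psmd2. The share of all probes with groups apart in this way is not given.

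**Figure D2:**
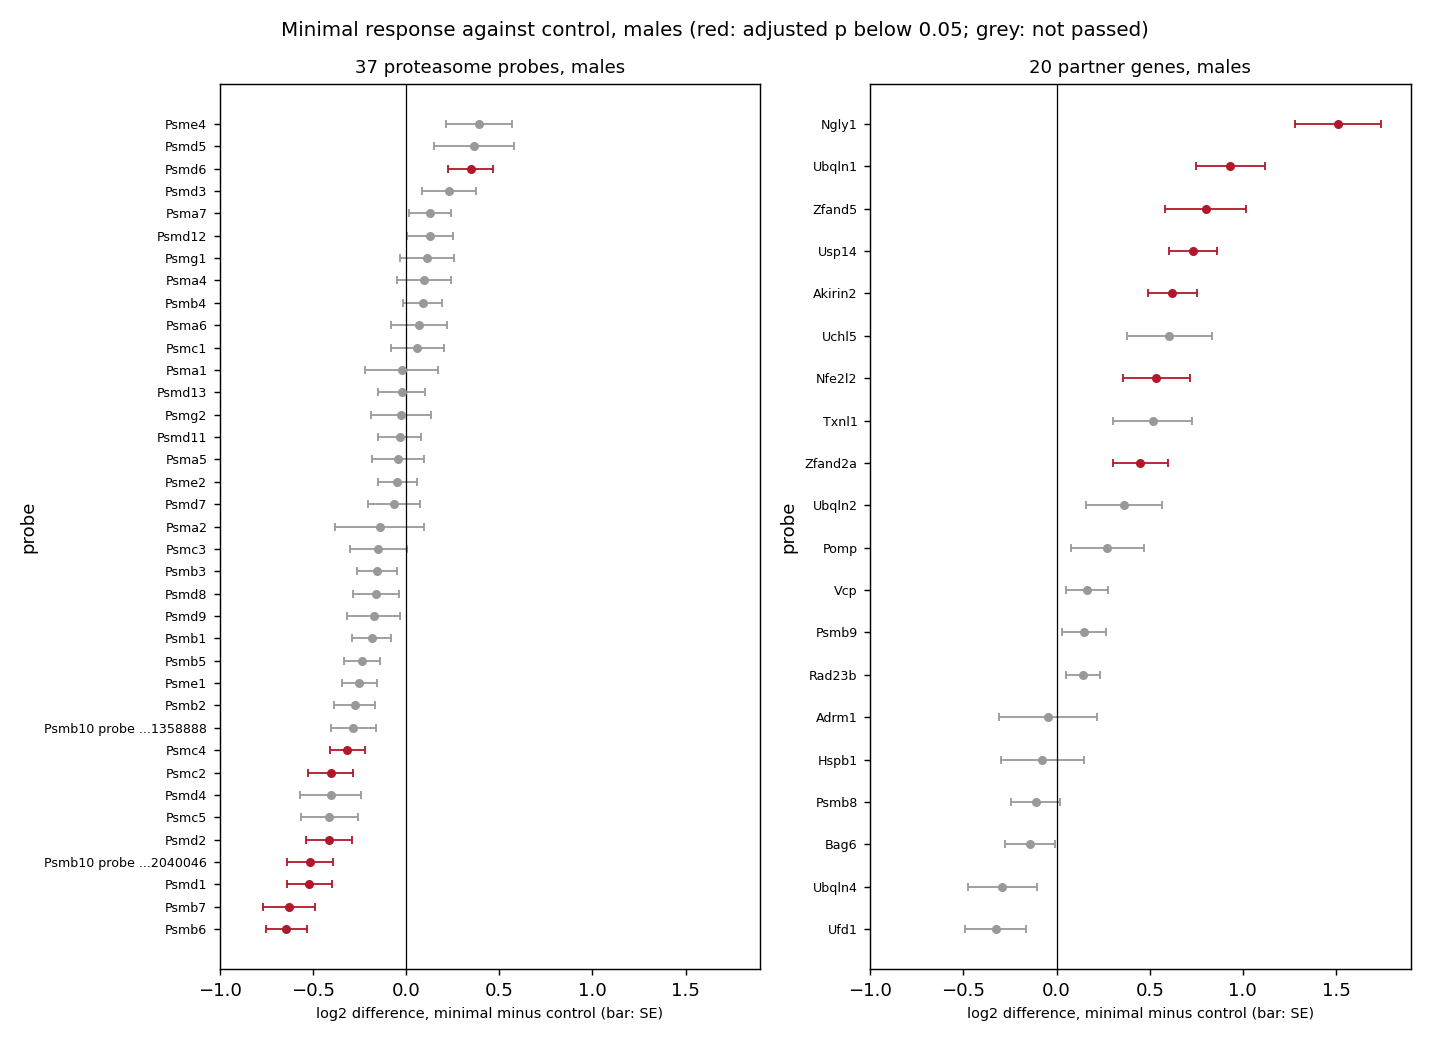
Differences in log2 intensity between males with a minimal response and control males (horizontal axis) for the 37 tested proteasome probes on the left and 20 partner genes on the right, with SE bars. Probes past an adjusted p of 0.05 are red. On the left 7 of the 8 red points are below 0, and on the right all 7 red points are above 0.

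Genes that work with the proteasome but lie outside the symbol rule were read from a list of ubiquitin shuttles, deubiquitinases, chaperones and regulators, of which 23 were on the array and 20 were tested. A gene with several tested probes was read from the probe of highest mean. The list was chosen with earlier results of these data known. Its shares of called genes, here and below, therefore describe the list and do not test it. In males with a minimal response 7 of these 20 were higher than in control males (35%, against 8.11% of all probes) and 0 were lower (0%, against 6.71%), with a median difference of 0.32, against -0.01 for all probes. Ngly1, the cytosolic glycanase that in human cells and worms is needed to activate Nfe2l1, had 6.63, 6.9 and 7.37 in males with a minimal response, against 4.89, 5.42 and 6.19 in control males. The groups did not overlap, and the difference was 1.51 ± 0.23 (adjusted p = 3.1e-05). Ngly1 was detected on 8 of 8 minimal response arrays and on 6 of 8 control arrays.

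Usp14, a deubiquitinase that docks on the base, had 7.53, 8.06 and 8.52 in males with a minimal response, against 7.07, 7.32 and 7.55 in control males, a difference of 0.73 ± 0.13 (adjusted p = 0.000204). The lowest minimal response array lay just inside the control range. The other 5 that rose, named after their values were seen, were the shuttle Ubqln1 (0.93), the proteasome-binding zinc finger genes Zfand5 and Zfand2a (0.45), the nuclear import factor Akirin2 (0.62) and the antioxidant regulator Nfe2l2 (0.54). Zfand5 was detected on 7 of 8 minimal response arrays and on 1 of 8 control arrays, so its control level is mostly a bound. Set against the lowest detected signal of each control array it was at least 1.48-fold higher (fitted adjusted p = 0.00951). The calls of Zfand2a and Nfe2l2 were lost on leaving out any of 5 and any of 7 of the 16 arrays (adjusted p up to 0.0772 and 0.0824). With 75th percentile scaling the calls of Usp14 (adjusted p = 0.0526), Zfand2a and Nfe2l2 were lost with the same sign. The immunoproteasome subunits Psmb8 and Psmb9 did not pass, at -0.11 ± 0.13 and 0.15 ± 0.12.

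Males with an extreme response had 0 members past the test against the same control males, and 0 of 9416 probes passed in this comparison (limma), or 0%, although 8 members and 1437 probes had an unadjusted p below 0.05. The members' median difference was -0.06, against -0.01 for all probes. In this group replicate 6 had the lowest signal, with a raw 95th percentile of 233.757 and 6274 probes detected. It had the highest value of the 8 arrays in 12 and the lowest in 9 of the 37 members. Replicate 8 was highest in 11 and lowest in 2. Replicate 2 was highest in 6 and lowest in 9, and replicate 4 was highest in 0 and lowest in 9. Only replicate 6 had the largest count, alone or shared, in both directions. Psmd7 of the lid read 6.71 on replicate 6 and 8.21 to 8.5 on the other 7, and Psmc1 read 8.15 and 9.23 to 9.82. The 3 members of smallest p did not pass. Psme4, the PA200 activator gene, had 7.86, 8.38 and 9.84 in males with an extreme response, against 7.67, 8.1 and 8.3 in control males (0.48 ± 0.18, adjusted p = 0.165). Its highest value was that of replicate 6, without which the others ran up to 8.83 and the difference was 0.295 ± 0.151 (adjusted p = 0.487). Psmd6 had 7.28, 7.71 and 8 against 7.21, 7.35 and 7.65 in control males (0.31 ± 0.12, adjusted p = 0.187), and Psmb10 probe ILMN_2040046 had 8.66, 9.04 and 9.49 against 9.17, 9.37 and 9.46 (-0.30 ± 0.12, adjusted p = 0.213).

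Of the catalytic and scaffold subunits that fell in males with a minimal response, Psmb6, Psmd1 and Psmd2 had an SD of 0.316, 0.326 and 0.408 in males with an extreme response, against 0.172, 0.109 and 0.125 in control males. Psmb7 had about the same spread in both (0.312 and 0.306). Replicate 6 gave the highest Psmb6 (10.89, others 9.9 to 10.64) and the lowest Psmd2 (7.28, others 7.76 to 8.53). For Psmd1 it lay among the others. Psmb6 had 9.9, 10.25 and 10.89 in males with an extreme response. Its difference from control males was -0.11, and -0.19 without replicate 6. Psmb7 had 7.86, 8.36 and 8.91 there and differed from control males by -0.08, and Psmd1 had 6.53, 7.11 and 7.45 and differed by -0.22. All 8 tested base members were below 0, against 4819 of all 9416 probes. Their median was -0.23, although Psmc4 lay at -0.01. Without replicate 6, 6 of 8 were below 0 with a median of -0.175, and Psmc1 was at 0.07, against -0.11 with it. Of the 20 tested partners 0 passed and 15 were above 0, against 4597 of all 9416 probes above 0. Usp14 had 7.39, 7.82 and 8.32 in males with an extreme response, against 7.07, 7.32 and 7.55 in control males (0.55 ± 0.13, adjusted p = 0.0621), and Ngly1 had 4.9, 6.57 and 7.28 against 4.89, 5.42 and 6.19 (0.92 ± 0.23, adjusted p = 0.0621). Each of these passed on leaving out any of 5 of the 16 arrays, control replicates 6 and 7 and extreme response replicates 1, 2 and 8. The comparisons of both response classes share the control animals.

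Directly compared, males with an extreme response had higher Psmb6 than males with a minimal response, at 0.54 ± 0.11 (adjusted p = 0.0445), and all 8 extreme response arrays were above the minimal response mean. It was the only member of 37 that passed (2.7%, against 0.106% of all probes for higher calls and 0.138% in both directions). The call was lost on leaving out any of 9 of the 16 arrays, which were minimal response replicates 1, 2, 4, 6 and 7 and extreme response replicates 1, 2, 3 and 8, with adjusted p-values up to 0.148. It was also lost with 75th percentile scaling (adjusted p = 0.124) and with cell marker scores as covariates (0.0659), in both cases with the same sign. Psmb7 differed by a similar amount without passing, at 0.55 ± 0.14 (adjusted p = 0.0815), and Psmc4 differed by 0.31 ± 0.09 (adjusted p = 0.125) with groups that did not overlap, 9.7 to 10.09 in males with an extreme response and 9.32 to 9.69 in males with a minimal response. Of the 37 members 29 were above 0 (78.4%, against 48.5% of all probes), 14 of the 15 core probes among them. The members' median was 0.12, against -0.01 for all probes. The lid subunit Psmd3 went the other way, at -0.46 ± 0.15 (adjusted p = 0.14), with 8.63 to 9.72 in males with an extreme response and 9.37 to 10.12 in males with a minimal response. Of the 20 partners 0 passed, and the 2 of smallest p were Ngly1 (-0.59 ± 0.23, adjusted p = 0.253) and the thioredoxin-like Txnl1 (-0.53 ± 0.21, adjusted p = 0.264), so the response classes were not shown to differ in them.

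With both response classes averaged, exposed males had 6 members past the test against control males (16.2%, against 11.2% of all probes), 5 lower (13.5%, against 4.97%) and 1 higher (2.7%, against 6.23%). The lower ones were Psmb6 (-0.38 ± 0.10, adjusted p = 0.00862), Psmb10 probe ILMN_2040046 (-0.41 ± 0.11, 0.0101), Psmd1 (-0.37 ± 0.10, 0.015), Psmd2 (-0.33 ± 0.11, 0.0347) and Psmb7 (-0.36 ± 0.12, 0.0442), and Psmd6 was higher (0.33 ± 0.10, 0.0329). Of 16 exposed males, 14 were below the control mean for Psmb6 and for Psmb7, 15 for the Psmb10 probe, 14 for Psmd2 and 13 for Psmd1. Leaving out control replicate 1 or minimal response replicate 1 took the count of called members to 3. The share of all probes called in these fits is not given. The calls of Psmb6, Psmb10 and Psmd1 were kept without any single array. That of Psmd6 was lost without any of control replicates 1, 2, 3, 5 and 7, minimal response replicate 1 and extreme response replicate 7 (adjusted p up to 0.0735). That of Psmd2 was lost without any of control replicates 1, 4 and 8, minimal response replicates 1 and 6 and extreme response replicates 4, 5 and 6 (up to 0.0808). That of Psmb7 was lost without any of control replicates 1, 2, 5, 6 and 8, minimal response replicates 1, 4 and 7 and extreme response replicates 3, 4, 5, 6 and 7 (up to 0.122). All kept their sign, and with 75th percentile scaling 0 members and 1.77% of all probes passed. Of 5 skeletal muscle markers 3 were lower in exposed males. Of the 20 tested partners, 5 were higher (25%, against 6.23% of all probes) and 0 lower (0%, against 4.97%), among them Ngly1 (1.22 ± 0.20, adjusted p = 0.000227) and Usp14 (0.64 ± 0.11, adjusted p = 0.000541). With 75th percentile scaling only Ngly1 of the 5 passed.

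**Figure D3:**
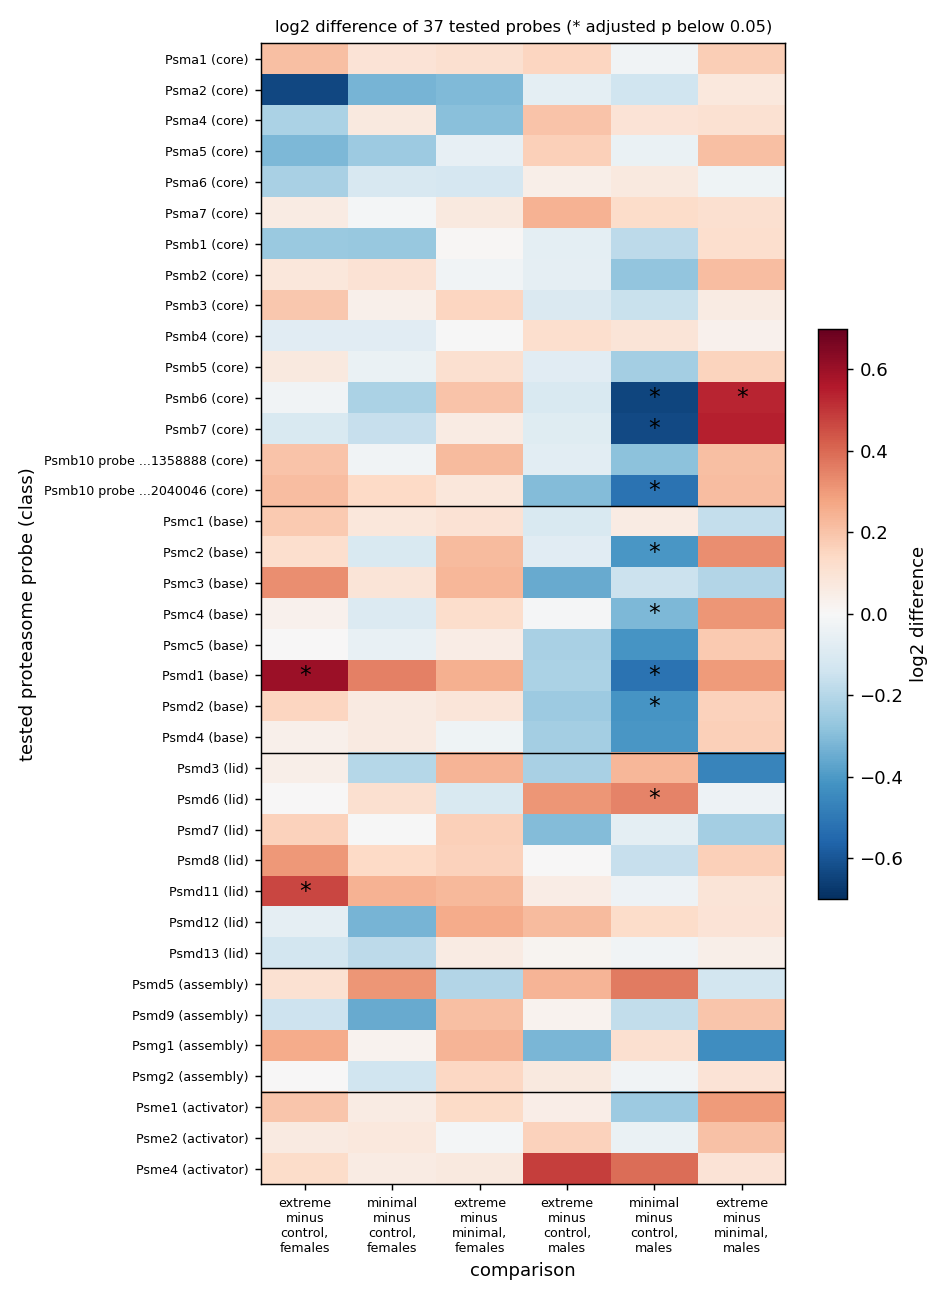
Differences in log2 intensity of the 37 tested proteasome probes (rows, grouped by class) in 6 comparisons (columns). Red is higher and blue lower in the group named first, and a star marks an adjusted p below 0.05. The stars lie in 3 of the 6 columns, with 8 in minimal response against control males, 2 in extreme response against control females and 1 in extreme against minimal response males.

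In females the members that passed were higher in exposed animals. Females with an extreme response had 2 of 37 members higher than female controls (5.41%, against 3.28% of all probes for higher calls and 5.36% in both directions together), the scaffold Psmd1 and the lid subunit Psmd11, and 0 lower (0%, against 2.08%). Psmd1 had 6.85, 6.97 and 7.14 in females with an extreme response, against 5.81, 6.31 and 6.99 in female controls. All 8 exposed animals were above the control mean, female control replicate 7 lay within their range, and the difference was 0.60 ± 0.13 (adjusted p = 0.00212). Psmd11, a lid subunit whose level is known to raise proteasome assembly in human stem cells, had 9.3, 9.55 and 9.78 in females with an extreme response, against 8.87, 9.09 and 9.29 in female controls. The groups did not overlap, the difference was 0.47 ± 0.12 (adjusted p = 0.0157), and the call was lost without female control replicate 5, when 1 member was left (adjusted p = 0.0534). The share of all probes called in that fit is not given.

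Both calls were lost without the 4 female controls that stood apart. Psmd1 read 6.22, 6.2, 5.81 and 6.59 on these arrays and 6.4 and 6.99 on female control replicates 6 and 7. Without them the difference was 0.27 ± 0.17 for Psmd1 (adjusted p = 0.821) and 0.29 ± 0.19 for Psmd11 (adjusted p = 0.828), and 0 members and 0.0743% of all probes passed in this comparison. With cell marker scores as covariates 0 members and 0.0743% of all probes passed as well. Psmd1 was then at 0.41 (adjusted p = 0.608) and Psmd11 at 0.39 (adjusted p = 0.678). In the same comparison 7 of 7 tested platelet markers were higher and 5 of 8 immediate early genes were lower. The summed platelet level was 35292 to 43191 in females with an extreme response, against 6057 to 44401 in female controls, and the summed immediate early level was 465 to 672 in females with an extreme response, against 584 to 3684 in female controls. Of 5 skeletal muscle markers 2 were higher, with a summed level of 203 to 1809 in females with an extreme response, against 140 to 174 in female controls. The covariate fit holds blood cell scores only, and the part of the immediate early and muscle transcripts in these results was not tested.

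Psmb6 and Psmb7, which were lower in males with a minimal response, had no call in females. Psmb6 had 9.95, 10.16 and 10.47 in females with an extreme response, 9.56, 10.02 and 10.17 in females with a minimal response and 10.1, 10.22 and 10.42 in female controls. Its difference from female controls was -0.02 ± 0.12 in females with an extreme response (adjusted p = 0.955), with the opposite sign under 75th percentile scaling (0.34) and without the 4 female controls (0.053). Psmb7 had 7.94, 8.44 and 8.91 in females with an extreme response, 8.15, 8.35 and 8.69 in females with a minimal response and 8.42, 8.53 and 8.73 in female controls. Psma2 of the alpha ring had 6.53, 6.85 and 7.77 in females with an extreme response, against 7.12, 7.55 and 8.23 in female controls. Its difference of -0.64 ± 0.26 was the largest in size among the members in this comparison and did not pass (adjusted p = 0.152). With the 4 female controls left out it was -0.35 ± 0.38 (adjusted p = 0.917), and that of Psmb7 was -0.03, against -0.11 with them.

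Females with a minimal response had 0 members past the test against female controls (limma, 0%, against 5.19% of all probes). An unadjusted p below 0.05 was found for 4 of 37 members, against 1634 of all 9416 probes. The 4 members were Psmd1 (0.35 ± 0.13, adjusted p = 0.112), Psmd12 of the lid (-0.32 ± 0.13, 0.174), Psmb1 (-0.27 ± 0.11, 0.193) and the assembly chaperone Psmd9 (-0.35 ± 0.15, 0.202). Psmd12 had 7.02, 7.44 and 7.74 in females with a minimal response, against 7.44, 7.59 and 8.2 in female controls. Psmb1 had 10.01, 10.44 and 10.74 in females with a minimal response, against 10.5, 10.58 and 10.81 in female controls, and both turned sign under 75th percentile scaling (0.11 and 0.23). Without the 4 female controls 0 members and 0% of all probes passed. Psmd1 was then at 0.024 ± 0.171 (adjusted p = 0.999) and Psmd9 at -0.006 ± 0.209 (0.999), while Psmd12 was at -0.43 ± 0.19 (0.986) and Psmb1 at -0.18 ± 0.17 (0.989).

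Between the response classes of females 0 members passed (0%, against 0.34% of all probes). An unadjusted p below 0.05 was found for 3 of 37 members, against 1156 of all 9416 probes. The 3 members were Psmd12 (0.26 ± 0.12, adjusted p = 0.379), Psmd1 (0.25 ± 0.12, 0.385) and Psma4 (-0.29 ± 0.14, 0.401). Psma4 had 6.89, 7.18 and 7.65 in females with an extreme response, against 7.17, 7.55 and 7.78 in females with a minimal response. Averaged over both classes, exposed females had 2 members higher than female controls (5.41%, against 4.27% of all probes for higher calls and 6.36% in both directions), Psmd1 (0.47 ± 0.11, adjusted p = 0.00473) and Psmd11 (0.36, lost on leaving out any of 12 of 22 arrays, with adjusted p up to 0.131). These were control replicates 1, 3, 4 and 5, minimal response replicates 1, 2, 3 and 8 and extreme response replicates 3, 4, 5 and 6. The Psmd1 call was lost without female control replicate 4 (adjusted p = 0.0558), when 0 members passed. The share of all probes called in that fit is not given. Without the 4 female controls 0 members and 0.0106% of all probes passed, with Psmd1 at 0.15 ± 0.16 and Psmd11 at 0.18 ± 0.18 (adjusted p = 0.994 for each).

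Of the 20 tested partners, only Zfand2a passed in females. It was higher in exposed females (0.50 ± 0.14, adjusted p = 0.0203) and in females with a minimal response (0.63 ± 0.16, adjusted p = 0.00732). These calls were 5% of the partners each, near the 4.27% and 3.96% of all probes called higher. Zfand2a had 5.57, 5.95 and 6.49 in females with a minimal response, against 4.72, 5.44 and 5.96 in female controls, where it was detected on 4 of 6 arrays. Both calls were lost without female control replicate 1 or 3 (adjusted p up to 0.127 and 0.0519). Without the 4 female controls the differences were 0.30 ± 0.19 in exposed females (adjusted p = 0.994) and 0.43 ± 0.21 in females with a minimal response (0.986), and with cell marker scores as covariates they were 0.016 (0.996) and 0.15 (0.907), none of them called. Bag6 (-0.36 ± 0.14, adjusted p = 0.148) did not pass there, and in females with an extreme response neither Nfe2l2 (-0.58 ± 0.19, adjusted p = 0.0715) nor the assembly factor gene Pomp (0.59 ± 0.21, adjusted p = 0.0996) passed. Leaving out the 4 female controls gave -0.19 for Bag6, -0.19 for Nfe2l2 and 0.17 for Pomp. Nfe2l2 passed without female control replicate 6, and Pomp without replicate 4 or 6. Between the response classes of females 0 partners passed, and the 2 of smallest p were Ubqln1 (-0.41 ± 0.19, adjusted p = 0.36) and Zfand2a (-0.27 ± 0.15, adjusted p = 0.459).

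**Figure D4:**
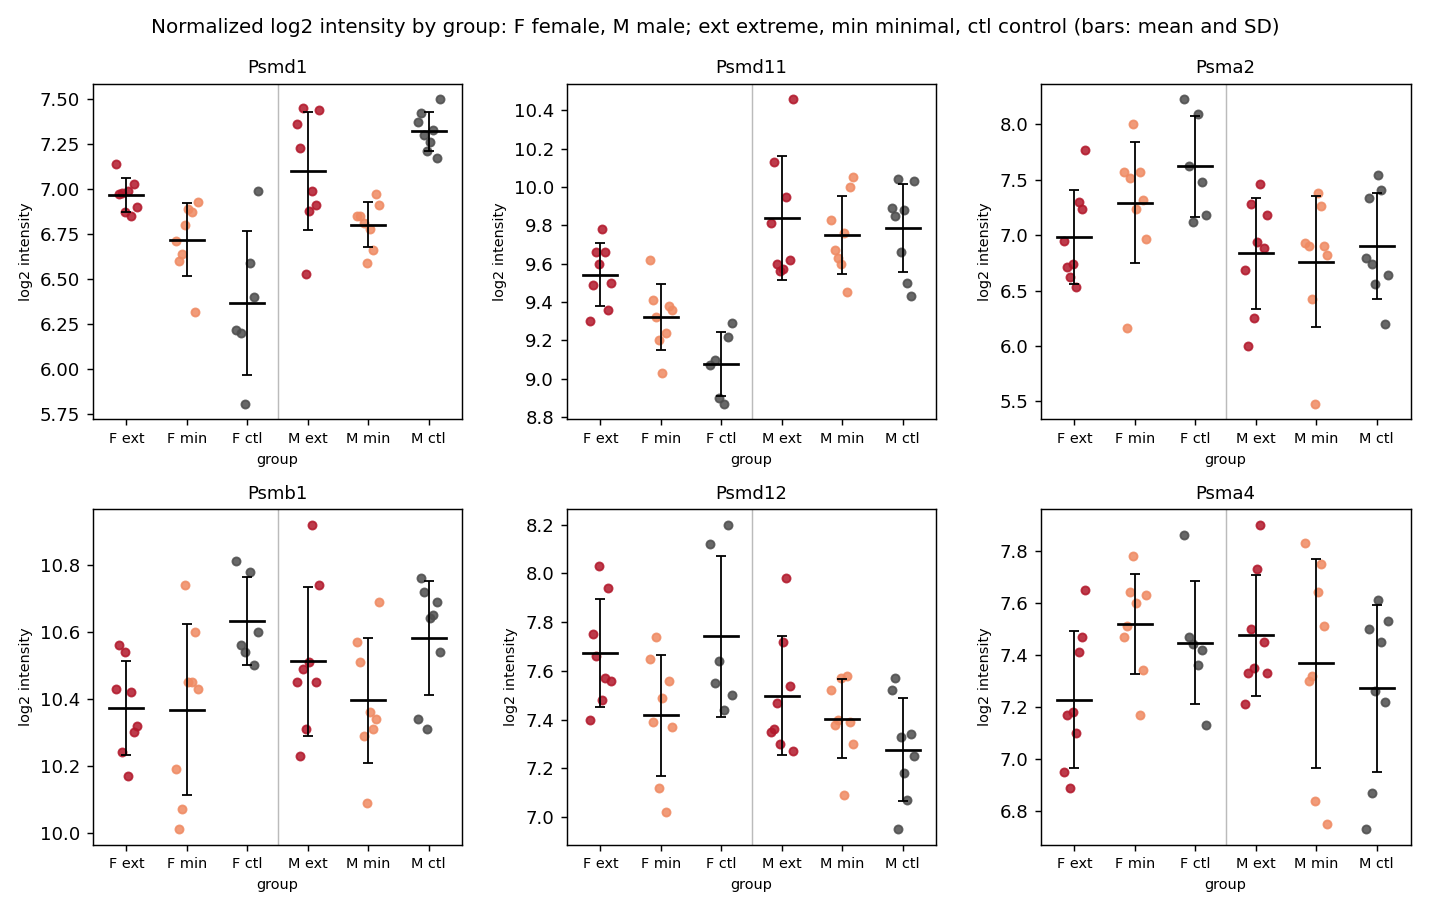
Normalized log2 intensity (vertical axis) on each array, by group (horizontal axis), of the 6 probes with the smallest p in the comparisons of female groups. Points are rats, and bars are the group mean and SD. The 8 females with an extreme response lie above all 6 female controls for Psmd11, while the female controls of Psmd1 run from 5.81 to 6.99.

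The exposure effect of females was set against that of males in the same fit. It differed in 2 of 37 members (5.41%, against 11.4% of all probes in both directions and 5.79% for differences above 0). Psmd1 differed by 0.85 ± 0.15 (adjusted p = 0.000388), higher in exposed than control females and lower in exposed than control males, and Psmb10 probe ILMN_2040046 by 0.59 ± 0.16 (adjusted p = 0.0118). The other Psmb10 probe differed by 0.27 ± 0.16 and did not pass (adjusted p = 0.286). Without the 4 female controls the 2 called probes kept their sign and were lost as calls, and 0% of all probes passed. Psmd1 was then at 0.52 ± 0.19 (adjusted p = 0.327) and Psmb10 probe ILMN_2040046 at 0.38 ± 0.21 (adjusted p = 0.547). The other Psmb10 probe turned sign, at -0.016 ± 0.187 (adjusted p = 0.986). With cell marker scores as covariates 0 members and 0% of all probes passed. Of the partners 4 of 20 differed, all below 0 (20%, against 11.4% of all probes in both directions), among them Ngly1 (-1.37 ± 0.30, adjusted p = 0.00198) and Akirin2 (-0.63 ± 0.17, adjusted p = 0.011). Without the 4 female controls they kept their sign and were lost as calls (Ngly1 at -1.13 ± 0.41, adjusted p = 0.327, and Akirin2 at -0.615 ± 0.216, adjusted p = 0.322). The difference between response classes was not shown to differ between the sexes for any of the 37 members (0 called, 0%, against 0.0319% of all probes). An unadjusted p below 0.05 was found for 6 of the 37, against 767 of all 9416 probes. The members ran from -0.49 to 0.70. For Psmb6 this difference of differences was -0.33 and for Psmb7 it was -0.49, neither past the test.

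The level of each probe also set the groups in order, as a description. For Psmd1 the group medians ran 6.31 in female controls, 6.75 in females with a minimal response, 6.83 in males with a minimal response, 6.97 in females with an extreme response, 7.11 in males with an extreme response and 7.32 in male controls. Neighbours in this order overlapped in their ranges. On each array the number of members above their own median over all arrays was 15 to 30 (median 22.5) of 37 in males with an extreme response, 12 to 28 (median 16) in males with a minimal response and 21 to 29 (median 24) in control males. In females it was 9 to 23 (median 18) with an extreme response, 9 to 17 (median 14) with a minimal response and 11 to 21 (median 15.5) in controls.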

How the data were processed

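Blood RNA was depleted of globin transcripts and hybridised to an Illumina rat bead array of 1 colour, per the labels' protocols. The authors deposited 1 non-normalized intensity and 1 detection p-value per probe and array, per the file headers. Deposited as well by the authors were log2 values for 46 of 47 samples, which differed from quantile-normalized log2 intensities by at most 5e-09. The array software is not given in the sources used here.

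Intensities were background corrected with limma's normexp model (offset 16, with the negative controls estimated through the detection p-values), quantile normalized over 46 arrays and put on the log2 scale. Female control replicate 2 was left out, since its highest intensity was 83.2 with 1115 probes detected. The 9416 probes detected (p below 0.05) on at least 7 arrays were tested in a group-means model with lmFit and eBayes (limma 3.58.1, R 4.3.3, 40 residual degrees of freedom). It gave 10 contrasts, with two-sided p-values adjusted by Benjamini and Hochberg. A call is an adjusted p below 0.05, and exposed stands for the mean of both response groups. The fit was tested on simulated data.

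Gene names came from the platform annotation (13793 probes with a symbol, 8730 without), and matched promoter sequences from RefSeq. The members and lists were chosen with earlier results of these data known. Values are described for Psmb6, Psmb7, Psmd1, each called member, the 3 of smallest p per comparison and the 2 partners of smallest p. Replicate numbers follow the sample order, and arrays of the same number did not deviate together (median correlation -0.016, from -0.528 to 0.396). Rat numbers in the titles recur between male groups in 6 pairs of arrays, which correlated at -0.528 to 0.182, with 1 of 6 over 0.1, so no pairing was assumed. Alternatives were other scalings, filters, offsets, array weights, covariates, each sex alone, a replicate block and leaving out arrays. Probe levels are not comparable between genes.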

Additional observations from a re-analysis of the deposited data

Results flagged for a closer look

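In the test of the difference itself, the exposure effect differed between females and males for Psmd1, by 0.85 on the log2 scale. Psmb10 probe ILMN_2040046 was called as well, with a difference of 0.59. These calls were 5.41% of the tested members, against 11.4% of all probes. Both were lost without the female controls that stood apart in their blood markers. Psmd1 was then at 0.518 (limma, adjusted p = 0.327) and the Psmb10 probe at 0.375 (adjusted p = 0.547). Both calls were also lost with cell marker scores as covariates. Psmb6 on the array of male control replicate 6 read 10.05, against 10.35 to 10.61 on the other male controls. Psmb10 probe ILMN_2040046 on the array of female extreme response replicate 5 read 9.28, against 8.77 to 8.95 on the other females with an extreme response. Both single arrays lay apart from their group by Dixon's criterion. They were 2 of 84 groups of arrays looked at over 14 members, and chance alone gives such a gap in about 1 of 20 groups.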

How the results depend on the processing

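In this paragraph brackets after a count of called members give the share of all tested probes called in the same fit. It is not given for the fits that leave out single arrays. Fitting all 47 arrays moved the median of all probes by 0.11 in extreme against control females and 0.12 in minimal against control females. It took the called members to 0 in extreme against control females (4.38%) and 1 in exposed against control females (7.25%). In males it gave 0 in minimal against control (3.37%), exposed against control (1.26%) and extreme against minimal (0%). With 75th percentile scaling the counts were 1 in extreme against control females (2.62%) and 2 in minimal against control females (7.35%). In males they were 2 in minimal against control (5.78%), 0 in exposed against control (1.77%) and 0 in extreme against minimal (0.0212%). Array weights gave 1 in extreme against control (3.31%) and 1 in exposed against control females (4.65%), and 13 in minimal against control males (21.1%). No detection filter gave 1 in exposed females (2.24%) and 3 in exposed males (3.22%). Cell marker covariates gave 0 in extreme (0.0743%) and 0 in exposed (0%) against control females. They also gave 0 in extreme against minimal males (0%) and 0 in the difference of exposure effects between sexes (0%). Fitting each sex alone gave 0 in extreme against minimal males (0.0212%). The arrangement without the 4 female controls was chosen after the data were seen. It gave 0 in extreme (0.0743%) and 0 in exposed (0.0106%) against control females, and 0 in the difference between sexes (0%). With the replicate number as a block, 1 member passed in exposed against control females (5.61%) and 0 in extreme against minimal males (0%). Of the 46 arrays, 8 correlated best with their own number. The block moved no other count by over 1.5 times. The rat number of the titles as a random block was chosen after the data were seen (consensus correlation -0.121). With it 7 members passed in minimal against control males, all lower (13%). In exposed against control males 4 passed (8.86%), and in extreme against minimal males 1 passed (0.138%). The call of Psmd6 was lost in the first of these (adjusted p = 0.0523), and those of Psmd2 and Psmb7 in the second (0.0604 and 0.0661).

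Leaving out single arrays gave 1 to 2 called members in extreme against control females, 0 to 1 in minimal against control females (1 without control replicate 7 or minimal response replicate 7), 0 to 2 in exposed against control females, 7 to 10 in minimal against control males, 3 to 7 in exposed against control males, 0 to 2 in extreme against minimal males and 2 to 3 in the difference of exposure effects. The share of all probes called in each of these fits is not given, so a change in these counts cannot be set against that of all probes.

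Signs turned for members with no call. With all 47 arrays and with 75th percentile scaling, extreme against control females gave 0.76 and 0.34 for Psmb6 and 0.47 and 0.17 for Psmb7, minimal against control females gave 0.14 and 0.11 for Psmd12, 0.61 and 0.23 for Psmb1, 0.56 and 0.28 for Psmb6 and 0.41 and 0.32 for Psmb7, and exposed against control females gave 0.66 and 0.31 for Psmb6 and 0.44 and 0.24 for Psmb7. All 47 arrays gave -0.11 for Psmd1 in minimal against control females, and 75th percentile scaling gave -0.15 for Psmb7 in extreme against minimal females. Cell marker covariates gave 0.052 for Psma2 and 0.21 for Psmb6 in extreme against control females, 0.022 for Psmb6 in exposed against control females and 0.041 for Psmd1 in the difference of response class effects, and leaving out the 4 female controls gave 0.053 for Psmb6 in extreme against control females. Among the partners, Bag6 turned sign in minimal against control females with all 47 arrays (0.56) and 75th percentile scaling (0.127), and Nfe2l2 in exposed against control females with cell marker covariates (0.076). The cause of these changes was not tested. The offset of 50 and the deposited log2 values kept every sign and every count within 1.5 times.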
